A study of Rattus norvegicus with 6 samples.

Results

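The sites described here are CpG cytosines whose methylation differed strongly, in many cases close to all or nothing, between a pair of rat hippocampus libraries. They were chosen from reduced representation bisulfite sequencing (RRBS), which measures the methylation of cytosines in restriction fragments rich in CpG. A site was taken when it was a CpG cytosine with at least 10 reads in both libraries and its methylation level, the percent of reads still read as C, differed by 70 percentage points or more. Of 1215420 CpG sites with 10 reads or more in both libraries, 274 met the rule. A CpG has a cytosine on each strand and can thus hold a pair of sites; the 274 cytosines belonged to 229 CpGs. The levels themselves chose these sites, so the levels and differences below are descriptions without a test.

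The libraries came from hippocampus of Sprague-Dawley rats labelled 7 weeks of age. One library was from the treated condition, in which benzo[a]pyrene in corn oil was given daily by oral gavage at 2.0 mg/kg. Benzo[a]pyrene (B[a]P) is a combustion product whose metabolites bind DNA. The other was from the control condition, with corn oil alone. The labels state 7 weeks of gavage for the RNA libraries of the series and no duration for the RRBS libraries. They do not say whether a library held tissue of 1 animal or a pool. With 1 library per condition there is no replicate check, and every difference compares these libraries, not the treatment. The B[a]P library listed 1441423 CpG sites at a median of 47 reads, whereas the control library listed 1251142 (median 72 reads). Pooled non-CpG methylation, which holds unconverted cytosines and any true non-CpG methylation, was 0.681% in the B[a]P library and 0.672% in the control library. Intervals below are 95% Wilson intervals; they and the limits set by a count of 0 cover counting error only, since PCR reads without molecular identifiers are not independent molecules.

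In mammals, methylation sits mostly on the cytosines of CpG, a palindrome, and the maintenance methyltransferase Dnmt1 copies it to the new strand after replication, so both strands of a CpG usually carry the same level. Neighbouring CpGs also tend to resemble each other, since methylation is set over stretches of DNA. Bisulfite turns unmethylated cytosine into uracil, which is read as T. A DNA sequence in which the C of a CpG is T, or its G is A, is therefore read as unmethylated on both strands, while neighbouring CpGs keep their own level. With any other change of the C or the G, the changed strand has no C or T to count there, and the cytosine left on the opposite strand is no longer in a CpG and is also read as unmethylated. Sprague-Dawley rats are an outbred stock whose animals differ in sequence from each other and from the reference. An allele-specific or regional methylation difference is usually carried by several CpGs in a row. Sequence differences were not measured in these libraries, so their part in the results was not tested.

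The 274 sites made up 0.0225% of the measured CpG sites. The B[a]P library had the higher level at 148 of them (0.0122% of measured sites) and the lower level at 126 (0.0104%), so the directions were similar in number. Sites higher in the B[a]P library had levels of 71.4% to 100% there (median 92.7%) and 0% to 29.6% in the control library (median 0%). Sites lower in the B[a]P library had levels of 0% to 25% there (median 0%) and 70% to 100% in the control library (median 92.9%). Most sites lay well past the 70 points that the rule asked for.

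**Figure D1:**
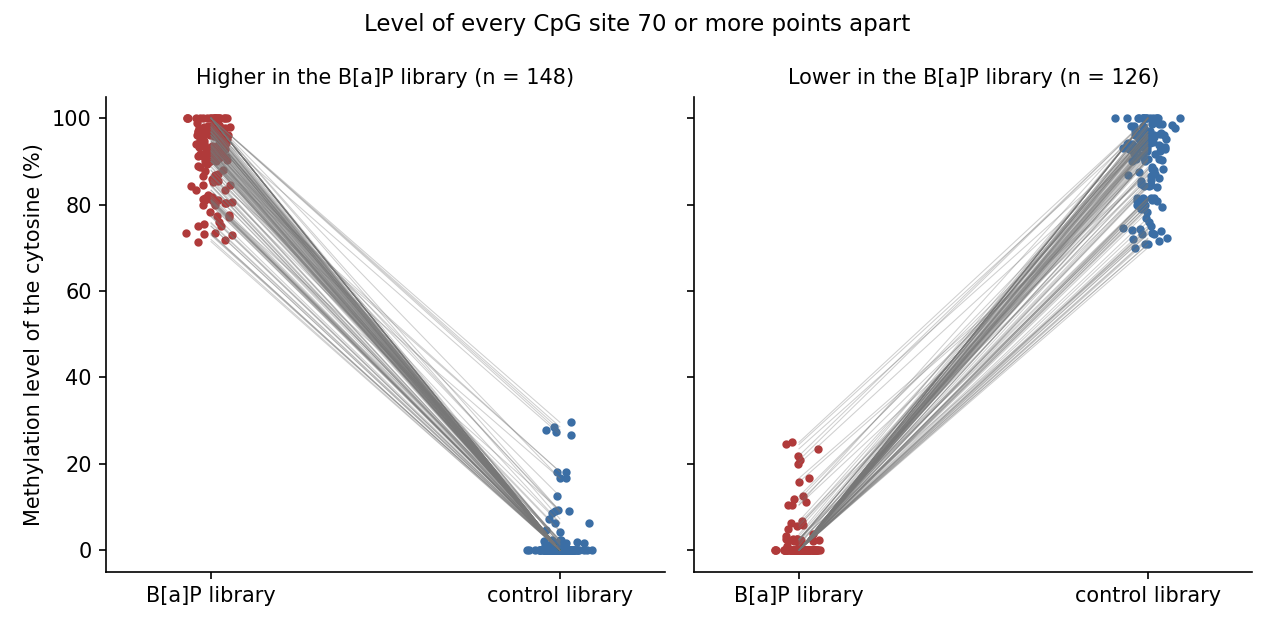
Methylation level (%) of every CpG site 70 or more points apart, with the B[a]P library on the left and the control library on the right of each panel. Each point is 1 cytosine, jittered sideways, and a line joins its values; the left panel holds the 148 sites higher and the right panel the 126 sites lower in the B[a]P library, and in both the low points crowd at 0%.

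At 210 of the 274 sites (76.6%) the lower library had no methylated read at all. Over all measured CpG sites with unequal levels, it was 246972 of 853365 (28.9%). This held for 117 of the 148 sites higher in the B[a]P library and for 93 of the 126 sites lower in it. Among the 163 sites just under the threshold, 60 to under 70 points apart, 67 (41.1%) had no methylated read in the lower library. The higher library was at 90% or more at 180 sites (65.7%) and at exactly 100% at 37. Both extremes, 0% against 100%, met at 22 sites. Only 23 sites (8.39%) were over 10% in the lower library. The 70-point rule leaves little room for the lower library's level, so these shares follow in part from the choice of the sites.

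The number of CpG sites fell with the size of the difference and then rose again. There were 1474 sites 40 to under 50 points apart, 494 at 50 to under 60, 163 at 60 to under 70, 60 at 70 to under 80 and 61 at 80 to under 90. In the last band, 90 to 100 points, there were 153. The 274 sites therefore hold the tail of a falling distribution and a separate excess near 100 points. In the last band the lower library was at 0 methylated reads at 136 sites (88.9%), compared with 33 of the 60 sites (55%) at 70 to under 80 points. A larger difference leaves less room for the lower library's level, so this rise follows in part from the bands themselves.

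**Figure D2:**
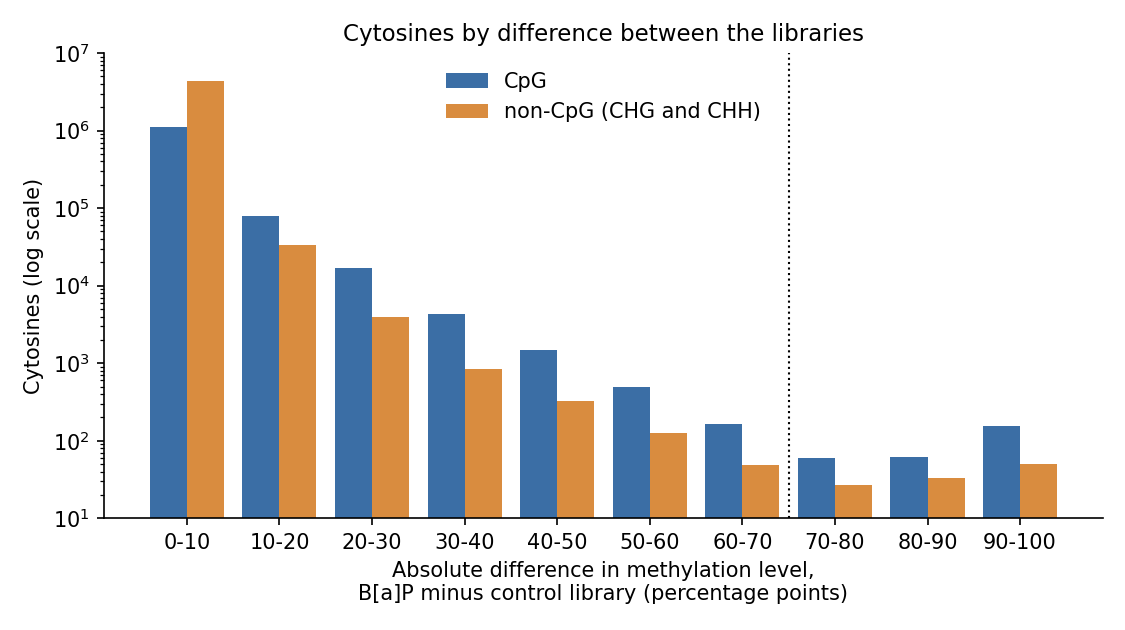
Number of cytosines (log scale) by the absolute difference in methylation level between the B[a]P and the control library, in bands of 10 percentage points, for CpG sites and for non-CpG cytosines of the nuclear chromosomes. The dotted line marks 70 points; counts fall to the band of 70 to 80 points, with 60 CpG sites, and rise to 153 CpG sites in the last band.

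Sites at the threshold were shallow; their positions, and all below, are taken to be on build rn5, as deposited. The closest inside it were chromosome 11 at 76402319 (13 of 15 reads methylated in the B[a]P library, 2 of 12 in the control library), chromosome 7 at 37661355 (0 of 14 against 7 of 10) and chromosome 3 at 61009949 (34 of 34 against 8 of 27). The closest outside it were chromosome 19 at 61277239 (6 of 116 reads in the B[a]P library, 12 of 16 in the control library), chromosome 4 at 235338800 (18 of 19 against 3 of 12) and chromosome 2 at 270619579 (0 of 16 against 23 of 33). In 5 of these 6 sites at least one library had fewer than 20 reads.

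At the other end, the libraries separated completely. On chromosome 3 at 46671567, 77 of 77 reads were methylated in the B[a]P library and 0 of 48 in the control library. On chromosome 2 at 272966253 the counts were 52 of 52 and 0 of 72, and on the X chromosome at 127596920 they were 54 of 54 and 0 of 36. In the lower direction, chromosome 3 at 152203652 had 0 of 61 methylated reads in the B[a]P library and 16 of 16 in the control library. The others were chromosome 3 at 176017874, with 0 of 42 in the B[a]P library and 24 of 24 in the control library, and the X chromosome at 96201500, with 0 of 29 and 14 of 14. A count of 0 of 72 reads allows a level of up to 4.17%, and 0 of 61 up to 4.92%.

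Depth moved with membership. The smaller of a site's read numbers had a median of 26 among the 274 sites and 45 among all measured CpG sites. The share of CpG sites that were 70 points apart was 0.0432% where the smaller number was 10 to 19 reads, 0.0335% at 20 to 29, 0.0199% at 30 to 49, 0.0163% at 50 to 99 and 0.00781% at 100 or more. Some 20 of the sites nevertheless had 100 reads or more in both libraries. The part of depth in the number of sites was not tested.

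The question of strands could be asked where the cytosine on the other strand of the CpG, its partner, also had 10 reads in both libraries. The strands are no longer complementary after bisulfite treatment, so the partner is read from other molecules than the site itself. Both strands had 10 reads in both libraries in 61 of the 229 CpGs. In 45 of the 61 (73.8%) both cytosines were 70 points apart in the same direction, 25 of them higher and 20 lower in the B[a]P library. At other settings the share moved: it was 40.5% (49 of 121) at a threshold of 60 points and 100% (14 of 14) with 30 reads or more in both libraries. Over all 370139 CpGs measured on both strands, 0.0122% had both cytosines that far apart. Members were selected cytosine by cytosine, so both strands of these 45 entered through the rule.

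Values on the strands lay close together in the 45 CpGs past the threshold on both strands. The differences of the paired cytosines were a median of 3.81 points from each other, and at most 23.1 points. Both cytosines had to be past the threshold in the same direction, so the rule itself keeps this gap small. CpGs with a partner under the threshold are not in it. The gap is thus a description and not a check of strand agreement. In 31 of the 45 CpGs, no methylated read was seen on either strand in the lower library. The best covered was on chromosome 16 at 75756018 and 75756019. Its cytosines had 128 of 144 (88.9%, interval 82.7% to 93%) and 100 of 105 methylated reads (95.2%, 89.3% to 97.9%) in the B[a]P library. In the control library they had 0 of 142 and 0 of 93, which allow levels of up to 2.11% and 3.23%. Methylation was thus high on both strands in one library and undetected on both in the other.

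The same held for the next CpGs by coverage. On chromosome 10 at 102918822 and 102918823, 72 of 76 and 109 of 112 reads were methylated in the B[a]P library, and 0 of 115 and 0 of 140 in the control library. On chromosome 17 at 16938185 and 16938186 the counts were 138 of 171 and 60 of 71 in the B[a]P library, and 0 of 157 and 0 of 67 in the control library. The CpG on chromosome 3 at 174960040 and 174960041 had the opposite direction, with 0 of 73 and 0 of 46 methylated reads in the B[a]P library and 106 of 130 and 48 of 53 in the control library. In each of these CpGs the intervals of the strands overlapped within a library, and those of the libraries lay far apart.

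In 16 of the 61 CpGs the partner was under 70 points. Its difference had the sign of the site's own in 15 of the 16 and was 50 points or more in 7, with a median of 45.4 points. Examples chosen after their values were seen are chromosome 8 at 20456202, with 0 of 13 reads in the B[a]P library and 118 of 127 in the control library, whose partner differed by -52.9 points. At chromosome 1, 13505409, with 0 of 10 and 18 of 25 reads, the partner differed by -15.9 points. The CpGs around that last site differed too, with a pooled level of 12.6% in the B[a]P library and 35.9% in the control library. The site differences of these 16 CpGs had a median of 78.6 points, compared with 93.3 points for the cytosines of the 45, and their smaller read numbers a median of 20 and 31 reads.

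**Figure D3:**
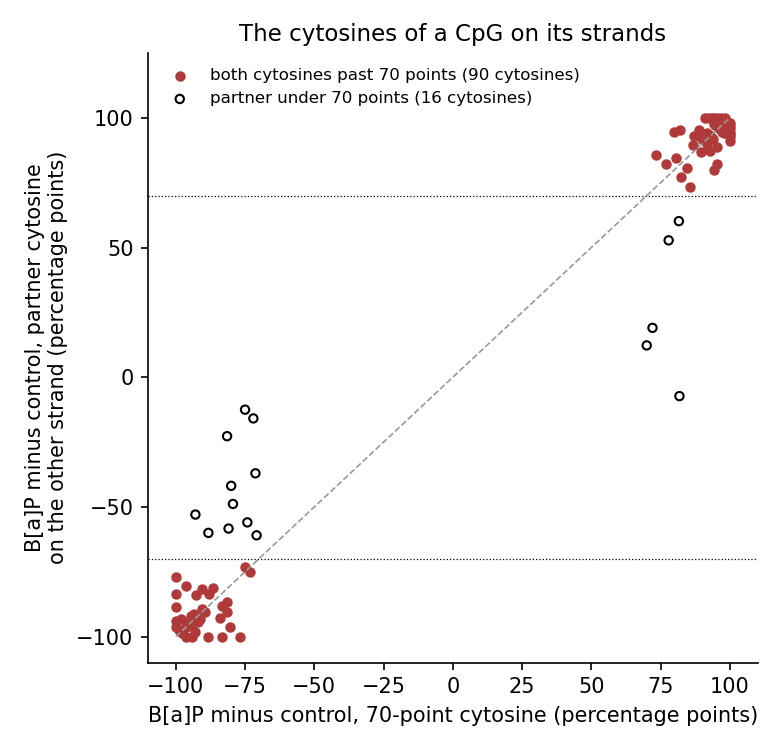
Difference in methylation level (B[a]P minus control, percentage points) of each 70-point cytosine against that of its partner on the other strand, for the 106 cytosines with a measured partner. The dashed line marks equal differences and the dotted lines 70 points. On both axes, 90 cytosines lie past 70 points, in the upper right and lower left corners, and 16 have a partner under 70 points. Each CpG of the 90 is shown once for each of its cytosines, with the axes exchanged.

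Agreement of the strands grew with the size of the difference. For measured CpG sites 40 to under 50 points apart, the partner's difference in the same direction had a median of 16.7 points. It was 36.2 points for sites 50 to under 60 apart, 41.9 for 60 to under 70, 56 for 70 to under 80, 86.7 for 80 to under 90 and 94.2 for 90 to 100. In the last band, 66 sites had a measured partner and the middle of their range was 91.8 to 97.5 points. Where both cytosines of a CpG lay in a band, each counted as the other's partner, so the sites are not independent. At a threshold of 90 points, 27 of 39 CpGs with both strands measured were past it on both.

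Partners were missing more often than elsewhere. Of the 274 sites, 106 (38.7%) had a partner with 10 reads in both libraries, compared with 60.9% of all measured CpG sites. A partner listed in 1 library only was found for 54 (19.7%), against 6.65% of all sites, and 114 (41.6%) had a partner listed in neither, against 32.4%. Among all sites with a partner listed in 1 library only, that library was B[a]P in 87.5% and control in 12.5%. Among the 21 such sites lower in the B[a]P library, it was B[a]P in 9 and control in 12 (57.1%). Among the 33 higher in the B[a]P library, it was B[a]P in 28 and control in 5 (15.2%). Among sites lower with B[a]P, the partner was thus missing from that same library in more than its usual share. Among sites higher in the B[a]P library, it was missing from the control library in 84.8%, near the usual 87.5%. The 274 sites were also shallower than other sites, and the part of depth in missing partners was not tested.

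Neighbours within 100 bp gave the next view of these CpGs. Another CpG was measured within 100 bp of 226 of the 229, and of 97.5% of all measured CpGs. In 192 of the 226 (85%) no other CpG in that stretch was 70 points apart, and these are called isolated here. Over all measured CpGs only 0.0271% were 70 points apart, so the lack of such a neighbour is the usual case. The isolated CpGs had a median of 4 neighbouring CpGs. Of the 192, 107 had the higher level in the B[a]P library, and of the 56 with both strands measured, 41 were 70 points apart on both strands.

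The neighbours of isolated CpGs were methylated in both libraries. Pooled over reads, the neighbours' level in the library where the CpG itself was low had a median of 90.2%, while the CpG's own level there had a median of 0%. In the library where the CpG was high, the neighbours had a median of 90.6% and the CpG 92.4%. The neighbours were at 50% or more in the low library for 187 of the 192 and at 80% or more for 155. Most of these CpGs thus stood low within a stretch that was methylated. Every neighbour was within 25 points between the libraries for 170 of the 192 (88.5%), and a neighbour 50 points apart or more was found for 5. Isolated CpGs were chosen for lacking a neighbour past the threshold, so this agreement follows in part from the choice. Small differences are also the usual case, since 1111820 of all 1215420 measured CpG sites were under 10 points apart. The share with every neighbour within 25 points was not computed for CpGs in general. The median difference of a CpG's neighbours, in the direction of the CpG, had a median of 0.75 points over the 192.

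Single stretches showed this site by site. The deepest isolated site, chromosome 3 at 175164193, had 206 of 258 methylated reads in the B[a]P library (79.8%, interval 74.5% to 84.3%) and 2 of 304 in the control library (0.658%, 0.181% to 2.37%). A CpG 6 bp before it was at 59.7% in the B[a]P library and 61.3% in the control library, and one 66 bp after it at 89.5% and 91.1%. Of the 5 sites measured there, the other 4 differed by at most 5.84 points.

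Chromosome 5 at 171990885 had 261 of 281 methylated reads in the B[a]P library and 0 of 248 in the control library, which allows up to 1.21%. Its neighbours 23 bp before and 25 bp after were at 92.2% and 92.9% in the B[a]P library, against 95.2% and 95.6% in the control library. On chromosome 10 at 6849204, 213 of 217 reads were methylated in the B[a]P library and 0 of 221 in the control library, while the CpG 7 bp before it was at 95.4% and 93.2%. Levels on either side of these sites were nearly equal between the libraries.

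On chromosome 17, the CpG at 16938185 stood 3 bp after one at 52.9% in both libraries and 9 bp after one at 95.3% in the B[a]P library and 96.8% in the control library. An intermediate and a high neighbour thus had nearly equal levels in the libraries beside a CpG at 80.7% in the B[a]P library and 0% in the control library. Around the CpG on chromosome 16 at 75756018, the neighbours 9 bp before and 25 bp after were at 87.6% and 89.6% in the B[a]P library, against 88% in the control library at both. On chromosome 19 at 52469870, 0 of 200 reads were methylated in the B[a]P library and 177 of 184 in the control library. Its surroundings were less even, with the cytosine 24 bp before it at 81.2% of 16 reads in the B[a]P library and 50% of 14 in the control library, and the CpG 10 bp after it at 74.5% in the B[a]P library and 89.2% in the control library.

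**Figure D4:**
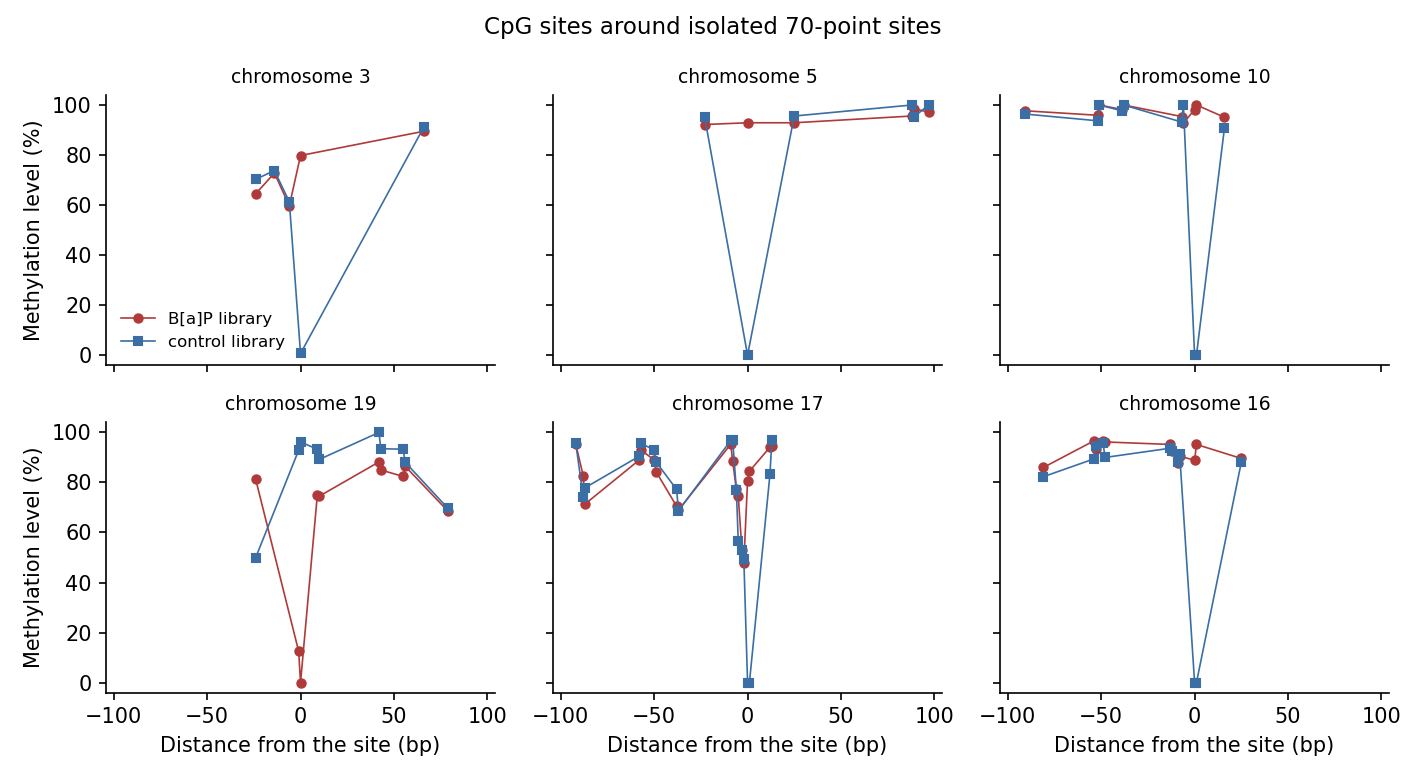
Methylation level (%) of every CpG site measured within 100 bp of the 6 deepest isolated sites with 3 or more neighbouring CpGs, against distance from the site (bp), in the B[a]P library (circles) and the control library (squares). One library drops to or near 0% at the site, the control library in 5 panels and the B[a]P library on chromosome 19; at the neighbouring CpGs the libraries differ by at most 17.9 points, or 31.2 points on chromosome 19.

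Over all 229 CpGs, the median difference of neighbouring sites stayed near 0 at every distance examined. A site near more than 1 of these CpGs was counted once for each. In the direction of the central CpG, the median difference was 1.1 points for 196 sites within 10 bp, 1.04 for 299 sites at 11 to 25 bp, 0.525 for 378 sites at 26 to 50 bp and 0 for 404 sites at 51 to 100 bp. It was 1.07 points for 315 sites beyond 100 and up to 200 bp, and 1.55 for 293 sites beyond 200 and up to 500 bp. The spread was wider farther out on the side of the central CpG: the central 80% of the sites lay from -7.9 to 14.5 points within 10 bp and from -9.57 to 11.4 points at 51 to 100 bp, against -6.48 to 22.4 points and -7.47 to 24.6 points in the 2 farthest bands.

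Clusters were few and small. In all, 34 of the 229 CpGs (14.8%) had another 70-point CpG within 100 bp, and they formed 16 clusters, 14 of 2 CpGs and 2 of 3, spanning 2 to 89 bp. No stretch of 4 or more such CpGs was found at this spacing. In 8 clusters every CpG was lower in the B[a]P library, in 4 every CpG was higher, and in the remaining 4 the directions were mixed. Over all measured CpGs, 0.0271% were 70 points apart. Of the 196 sites within 10 bp of one of the 229 CpGs, 12 were 70 points apart, against 0.0225% of all measured CpG sites. A site was counted once for each of the 229 CpGs it lay near, so these counts are not of distinct sites. The share of all measured CpGs with a 70-point CpG within 100 bp is not given here. Clusters were thus few in number, but 70-point CpGs stood near each other more often than their share over the genome. The same contrast chose both, so this is a description. Sites of a cluster can lie on the same reads and are not independent.

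The 2 clusters of 3 CpGs were mixed. On chromosome 19, the sites at 39497938 and 39497941 had 48 and 46 of 50 methylated reads in the B[a]P library and 2 and 0 of 23 in the control library, while the site 72 bp after the first had 0 of 50 and 22 of 23. On chromosome 8, the site at 119692455 had 0 of 41 methylated reads in the B[a]P library and 19 of 21 in the control library. The sites at 119692495 and 119692499 had 36 of 42 and 36 of 41 in the B[a]P library and 0 and 1 of 23 in the control library. In both clusters, CpGs high in the B[a]P library stood beside one that was low there, and the control library had the opposite arrangement.

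The other 2 mixed clusters showed the same exchange. On chromosome 9, the site at 4290696 had 22 of 22 methylated reads in the B[a]P library and 0 of 12 in the control library, and the site at 4290761 had 0 of 22 and 11 of 11. On chromosome 2, adjoining CpGs at 77724196 to 77724199 exchanged states between the libraries. The cytosines of the first CpG had 1 of 96 and 0 of 96 methylated reads in the B[a]P library and 73 of 74 and 78 of 79 in the control library. Those of the second had 94 and 95 of 96 in the B[a]P library and 0 of 74 and 0 of 79 in the control library. In each library 1 of these CpGs was thus read as almost fully methylated and the other as almost unmethylated, on both strands. Both of these CpGs are among the 6 best covered on both strands; their place among the clusters was chosen after their values were seen.

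Of the clusters with 1 direction, that on chromosome 6 spanned 89 bp, with 0 of 20 methylated reads at 98338249 and 98338338 in the B[a]P library and 15 of 16 and 16 of 17 in the control library. On chromosome 17, the sites at 78216087 and 78216136 had 20 of 22 and 18 of 20 in the B[a]P library and 0 of 18 and 0 of 17 in the control library. On chromosome 1, CpGs at 216232819 and 216232867 were low on both strands in the B[a]P library, at 2.63% and 0% for the first and 0% and 0% for the second, against 86.1% and 88.1%, and 92.4% and 93.2%, in the control library. Only 5 clustered CpGs had both strands measured, and 4 of these were 70 points apart on both.

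Non-CpG cytosines, which are rarely methylated, gave a readout the rule did not use. Within 100 bp of the 229 CpGs, their pooled level had a median of 0.862% in the library where the CpG was low and 0.809% in the library where it was high. Over the nuclear chromosomes, 110 of 4410753 non-CpG cytosines (0.00249%) were 70 points apart, 44 higher (0.000998%) and 66 lower (0.0015%) in the B[a]P library. At 77 of the 110 the lower library had no methylated read, and the higher level had a median of 90.5%. In their distribution the last band, with 50 sites, again exceeded the bands below it, with 33 and 27.

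Such non-CpG cytosines stood near the 70-point CpGs more often than near CpGs in general. One lay within 100 bp of 17 of the 229 CpGs (7.42%), compared with 449 of all 845281 measured CpGs (0.0531%). Both kinds of site were chosen by the same contrast, so this is a description. The non-CpG cytosine was high in the other library than the CpG at 11 of the 17, and in the same library at 6. These 17 CpGs shared 12 distinct non-CpG cytosines, 4 of which lay near more than 1 of the CpGs, so the 17 are not independent. In 5 of the 17 it lay 2 bp from the site, always with the opposite difference, and in 4 of these it had the context CHG (H is A, C or T). These 5 were chosen after their values were seen.

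In a CCG triplet, the first cytosine has the context CHG and the cytosine opposite the G, 2 bp away, belongs to the CpG. On chromosome 7, the CpG site at 27096896 had no methylated read among 47 in the B[a]P library and was at 91.2% of 34 reads in the control library. The CHG cytosine at 27096898 was at 89.5% of 76 reads in the B[a]P library and 0% of 62 in the control library. The CpG cytosine between them, at 27096897, was not listed in the B[a]P library and was at 90.3% of 62 reads in the control library. The B[a]P library thus listed reads on both sides of a cytosine at which it listed none. This was not particular to that cytosine: the CHH cytosines at 27096899 and 27096900, with 62 control reads each, were not listed in the B[a]P library either.

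On chromosome 8 the arrangement was the mirror image, with the CHG cytosine before the site. The CpG site at 121063090 was at 0% of 25 reads in the B[a]P library and 73.8% of 122 in the control library. The CHG cytosine at 121063088 was at 82.6% of 23 reads and 0% of 47, and the CpG cytosine between them was listed in the control library alone, at 68.8% of 48 reads. The CHH cytosine at 121063087 was likewise listed in the control library alone, with 48 reads. On chromosome 20 at 9611599 the CpG site was at 0% in the B[a]P library and 93.3% in the control library, and the CHG cytosine 2 bp before it at 96.2% and 1.27%. On chromosome 2 at 157803847 the CpG site was at 81.8% in the B[a]P library and 0% in the control library, and the CHG cytosine 2 bp before it at 0% and 96.8%. There the cytosine between them, at 157803846, had the context CHG rather than CpG and was at 0% in both libraries. The adjoining CpG cytosine at 157803848 was methylated in both, at 86.3% and 93.5%. The remaining one, on chromosome 20 at 12340794, was at 96.8% in the B[a]P library and 0% in the control library, with a CHH cytosine 2 bp after it at 0% and 90%. In all 5, a high cytosine in one library stood beside a high cytosine at a different position in the other.

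The 274 sites were unevenly spread over the genome. Every nuclear chromosome with measured sites held some. They made up 0.0744% of the measured CpG sites of the X chromosome (15 sites), 0.0661% on chromosome 17 (26 sites) and 0.046% on chromosome 3 (42 sites). The lowest shares were on chromosome 5 (4 sites, 0.00442%), chromosome 6 (3 sites, 0.00497%) and chromosome 11 (2 sites, 0.00647%).

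**Figure D5:**
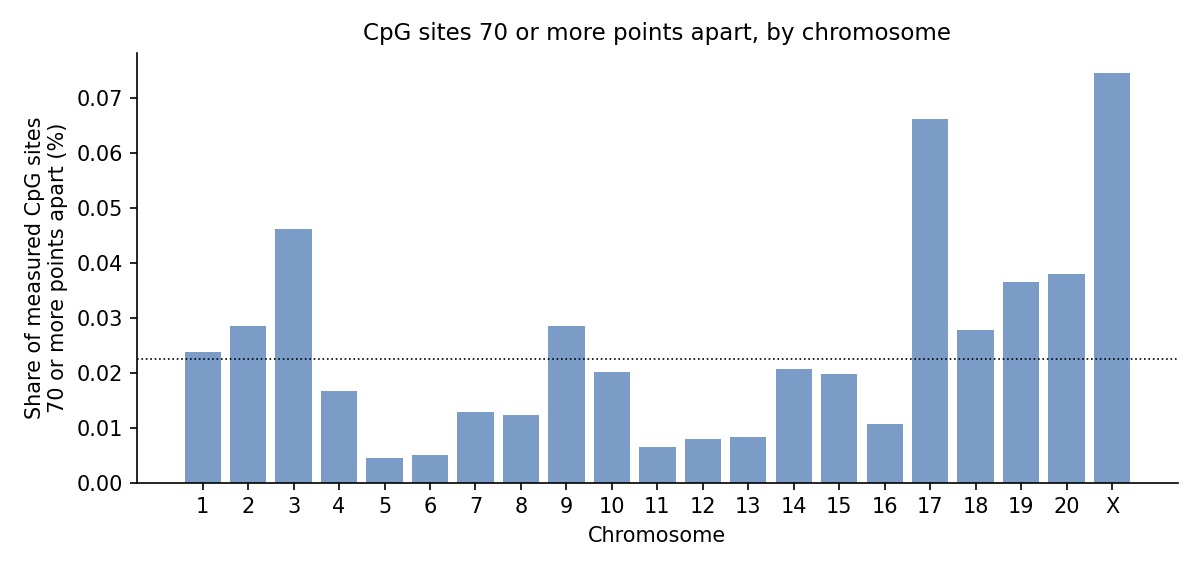
Share of measured CpG sites (%) that were 70 or more points apart between the B[a]P and the control library, by nuclear chromosome; the dotted line is the share over these chromosomes. Bars start at 0 and show 0.0744% on the X chromosome, 0.0661% on chromosome 17 and 0.00442% on chromosome 5.

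On a finer scale the CpGs gathered in some stretches. In windows of 10 Mb, 106 of 295 windows held at least 1 of the 229 CpGs, and 8 windows with 5 or more held 65 of them (28.4%) on 4.16% of all measured CpGs. The window from 90 to 100 Mb of the X chromosome held 7 among 395 measured CpGs (1.77%), compared with 0.0271% over the genome. Pairs of these lay close together, at 92273441 and 92273576, at 93421980 and 93422000, and at 96199363 and 96201499. The 7 thus stood at fewer places and are not independent. Chromosome 1 from 50 to 60 Mb held 9 of 2874 (0.313%), chromosome 10 from 0 to 10 Mb 7 of 2995 (0.234%), and chromosome 3 from 170 to 180 Mb and chromosome 17 from 10 to 20 Mb held 11 each, of 6876 and 7613. At this scale the CpGs were grouped over megabases while within 100 bp most stood alone. The windows were ranked by their own counts, so their shares are a description. No genes are given for these positions, since no annotation of their genome build was used here.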

How the data were processed

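RRBS libraries were made from hippocampal DNA, per the labels' protocols. Per the submitters' processing notes, bcl2fastq was used and 2 builds, rn6 and rn5, are named without saying which served what. The aligner, the caller and any duplicate removal are not given in the sources used here. Deposited tables give the count of methylated and of unmethylated reads at each cytosine, its context and, in percent, its level, per the file headers. The authors listed no cytosine under 10 reads. The largest positions on chromosome 1 exceed its length in rn6, and the build was taken to be rn5; positions are printed as the deposited start column has them, and whether it counts from 0 or 1 is not known. No column gives the strand.

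Tables were joined by position with pandas 2.3.3, leaving out 422 cytosines whose context differed. CpG cytosines at adjoining positions were paired as strands of 1 CpG, in order within runs of even length, and none of the 274 sites lay in a run that could not be paired. Levels have 95% Wilson intervals; a count of 0 allows 3 counts of the total. The classification was tested on simulated data. No test was run, because the rule used the only contrast. The named sites are the 6 best covered CpGs on both strands, the 6 best covered isolated sites with 3 or more neighbours, the 6 largest clusters, the 3 sites nearest the threshold on each side and the 3 largest differences in each direction, beside those said to be chosen after their values were seen. The sites and rules were chosen with earlier results of these data known. Expression and miRNA tables were not used, and methylation tables hold no marker expression against which to check the tissue. Alternatives changed the read minimum, the threshold, an upper limit on reads, the chromosomes and the window.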

Additional observations from a re-analysis of the deposited data

How the results depend on the processing

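The number of 70-point sites depended on the read minimum and the threshold. It was 182 with 20 reads and 122 with 30 reads in both libraries, 437 at 60 points and 153 at 90 points, against 274. The share of judged CpGs apart on both strands was 84.6% (22 of 26) with 20 reads and 100% (14 of 14) with 30 reads, and 40.5% at 60 points, against 73.8%. The share of sites with 0 methylated reads in the lower library was 63.4% at 60 points, 82.7% at 80 and 88.9% at 90, against 76.6%. The cause was not tested, except that a higher read minimum leaves fewer sites. The other 38 of 48 recomputed values, for the other neighbour windows, an upper limit at the 99th percentile of reads and numbered chromosomes included, stayed within 1.5 times a count or within the interval of a share: isolated CpGs made up 83% to 88.9% and clustered CpGs 11.1% to 17%. Sites higher in the B[a]P library made up 50.8% to 57% in every setting run.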

Other observations

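At 422 cytosines the libraries listed different contexts, and these positions were left out of the join. One of the 229 CpGs (0.437%) had such a cytosine within 100 bp, compared with 0.371% of all measured CpGs.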
